A study of Saccharomyces cerevisiae with 12 samples.

Results

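RNA of the temperature-sensitive TOR2 mutant of Saccharomyces cerevisiae, strain SH121 (MU), was compared after 6 h and after 2 h at 37 °C. Every yeast probe set of the array except the controls whose names begin with AFFX was taken, which gave 9275 of 9335 probe sets. The series holds 12 arrays, 2 for each of 6 groups: MU and the isogenic wild type SH100 (WT), each after 0, 2 and 6 h. All cultures were grown in a rich glucose medium (YPD). The 0 h cultures grew at 25 °C and the others were moved to 37 °C for 2 or 6 h. Per the study's methods, the duplicates A and B were independent cultures, and all were harvested at a similar optical density. The changes from 2 h to 6 h are taken from 4 arrays (MU 6 h A and B, MU 2 h A and B), while the spread behind each p was estimated over all 12. The comparison describes what changed after the first 2 h while the temperature stayed the same. No culture was kept at 25 °C for 6 h, so hours at 37 °C and hours of culture cannot be told apart. The mutant is 1 strain with 1 allele, with no second allele beside it.

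The TOR2 kinase belongs to the target of rapamycin family. It shares with TOR1 a role in growth control by nutrients, through TOR complex 1, and alone forms TOR complex 2, which acts on sphingolipid synthesis, the cell wall and the polarity of the actin cytoskeleton. SH121 is defective at 37 °C in the function that only TOR2 has. In wild type yeast, a shift to higher temperature induces heat shock proteins through Hsf1 and a wide set of stress genes through Msn2 and Msn4, and represses genes of ribosome biogenesis.

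The deposited values are signals in arbitrary units, where 1 is the lowest value listed and not a measured level. On at least 1 of the 4 mutant arrays, 858 of the tested probe sets were at 1, and 156 were at 1 on all 4. The duplicates of MU 6 h differed by a median of 0.257 on the log2 scale, the most of the 6 groups (0.170 to 0.257), and those of MU 2 h by 0.201. Array MU 6 h A stood apart on 1 ribosomal RNA control, AFFX-25srRnaa_at, with a signal of 3291, against 431 on MU 6 h B and 122 and 185 at 2 h, while the ratio of the 3′ to the 5′ probe set of ACT1 was 1.56 and 1.51 at 6 h, against 1.46 and 1.503 at 2 h. That ratio for YER022W was 3.15 and 3.13 at 6 h, against 2.23 and 2.00 at 2 h, and for YER148W 4.23 and 4.85 at 6 h, against 4.50 and 3.70 at 2 h, so that the YER022W ratio was higher on both 6 h arrays than on any of the other 10 arrays (1.66 to 2.81), and the YER148W ratios of the times overlapped. The part in the results of the YER022W ratio, and of MU 6 h A, was not tested. TOR2 itself had signals of 307 and 267 at 6 h, against 246 and 332 at 2 h, with a log2 change of 0.0047 ± 0.18. The allele is a temperature-sensitive one, so the level of its RNA does not check the strain label. The a-specific genes MFA1 and MFA2 were bright on all 4 mutant arrays (522 to 3062), and the α-specific MF(ALPHA)1, MF(ALPHA)2 and STE3 lay between 17.6 and 56.6.

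Between 2 h and 6 h, 27 probe sets rose and 31 fell in the mutant (limma with Benjamini-Hochberg adjustment over 9275 probe sets, adjusted p under 0.05), which is 0.291% and 0.334% of those tested. Among the rises were the stress genes HSP26, ALD3 and MSC1, the mitochondrial genes COX1, CYC3 and LSC2, and others of mixed roles. Among the falls were the permease genes DIP5, FCY22, FCY21 and MEP3 and genes for enzymes of lipid, nucleotide and methionine metabolism. The fitted log2 changes of the rises ran from 0.53 to 3.32 with a median of 1.09, and those of the falls from -0.47 to -3.97 with a median of -0.77. The largest of both were of dim probe sets, and the probe set with 3.32 was at the lowest value of 1 on both 2 h arrays. Of the 27 probe sets, 24 name 1 gene, and the 25 that do so among the 31 name 24 genes, since both probe sets of IMD4 fell. Counted by the brightest probe set of each gene, 24 genes were called higher and 19 lower. Some of the fallen genes were thus called only on a dimmer probe set. For all 58 the 6 h arrays did not overlap the 2 h arrays, which held for many others too: both 6 h arrays were above both 2 h arrays in 21.8% of all probe sets tested and below them in 24.3%. At an unadjusted p under 0.05, 833 were higher and 914 lower, 8.98% and 9.85%.

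The counts depended on the spread estimate and on single arrays. With the spread estimated from the 4 mutant arrays alone, limma called 0 higher and 0 lower. At an unadjusted p under 0.05, the counts of that fit were 615 and 659. A version of the study's rank difference analysis (RDAM), written anew for this report, called 165 higher and 3 lower. The paper's own RDAM counts for the same comparison and false discovery rate were larger in both directions. The cause of that gap was not tested. Without MU 2 h A, 0 probe sets were called higher (756 at an unadjusted p under 0.05) and 1, DIP5, lower. Without MU 2 h B there were 4 and 8, without MU 6 h A 120 and 136, and without MU 6 h B 14 and 23. The log2 change of DIP5 ran from -1.47 to -1.32 over the limma alternatives on the log2 scale. The 39 called probe sets that the rule for named genes selects kept their direction under every limma alternative. Their 6 h and 2 h arrays do not overlap, so leaving out an array could not turn the sign. Direction by probe set was not compared with RDAM.

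**Figure D1:**
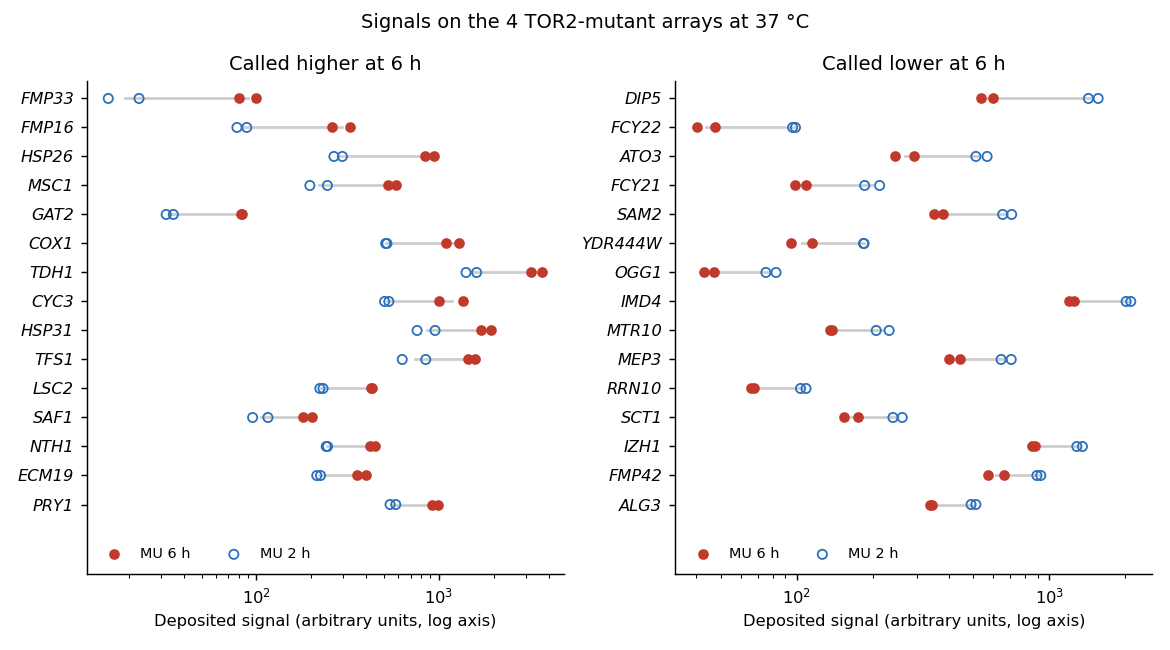
Signals on the 4 mutant arrays for the 15 genes with the largest rises (left) and the 15 with the largest falls (right) by the rule for named genes; filled red points are the duplicates at 6 h, open blue circles those at 2 h, and grey lines join the means, on a log axis. For each gene the duplicates of the 2 times lie apart, from FMP33 (80.0 and 99.1 at 6 h, against 22.7 and 15.4 at 2 h) to ALG3 (338 and 341 at 6 h, against 511 and 489 at 2 h).

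Among the genes that rose were several that Msn2 and Msn4 are known to induce under stress. HSP26, a small heat shock protein that binds unfolding proteins, had signals of 839 and 943 at 6 h, against 296 and 266 at 2 h (log2 change 1.67 ± 0.19 (SE), adjusted p = 0.0218). ALD3, a cytoplasmic aldehyde dehydrogenase, had signals of 78.7 and 68.8 at 6 h, against 26 and 24.5 at 2 h (log2 change 1.55 ± 0.25 (SE), adjusted p = 0.0491). In both genes, each 6 h array was over 2 times as bright as either 2 h array. MSC1 had signals of 583 and 524 at 6 h, against 245 and 196 at 2 h (log2 change 1.34 ± 0.14 (SE), adjusted p = 0.0128), and TFS1, an inhibitor of carboxypeptidase Y, 1445 and 1571 at 6 h, against 848 and 629.9 at 2 h (log2 change 1.05 ± 0.16 (SE), adjusted p = 0.0377). The gap between the times was wider than the gap between duplicates in each. The membrane-protecting HSP12 was bright already at 2 h and rose further, with 4896.5 and 4826 at 6 h, against 2984 and 3038 at 2 h (log2 change 0.70 ± 0.11 (SE), adjusted p = 0.0400). SSA4, the stress-inducible cytosolic Hsp70, rose by less, with 198 and 209 at 6 h, against 128.5 and 136 at 2 h (log2 change 0.63 ± 0.090 (SE), adjusted p = 0.0353). HSP31, a glyoxalase related to DJ-1, had signals of 1928 and 1697.5 at 6 h, against 954 and 760.2 at 2 h (log2 change 1.09 ± 0.15 (SE), adjusted p = 0.0336). NTH1, the neutral trehalase that breaks down the stress sugar trehalose, had 419 and 445.5 at 6 h, against 241 and 245 at 2 h (log2 change 0.83 ± 0.086 (SE), adjusted p = 0.0128).

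Genes of energy metabolism rose beside them. TDH1, the isoform of glyceraldehyde-3-phosphate dehydrogenase known for its level under stress and slow growth, had signals of 3190.2 and 3691 at 6 h, against 1612 and 1410.1 at 2 h (log2 change 1.19 ± 0.11 (SE), adjusted p = 0.0101). LSC2, the β subunit of the succinyl-CoA ligase of the TCA cycle, had 423 and 429 at 6 h, against 232 and 223 at 2 h (log2 change 0.91 ± 0.071 (SE), adjusted p = 0.00662), with duplicates that lay close together at both times. CYC3, the heme lyase that makes cytochrome c, had 997 and 1357 at 6 h, against 532 and 504 at 2 h (log2 change 1.17 ± 0.15 (SE), adjusted p = 0.0330). COX1 is a subunit of cytochrome c oxidase that the mitochondrial genome encodes. One of its probe sets, 4005_at, had 1097 and 1288 at 6 h, against 511 and 519 at 2 h (log2 change 1.21 ± 0.18 (SE), adjusted p = 0.0377), while the others, 4007_at and 4008_at, stayed dim on these 4 arrays (7.6 to 17.7) and were not called. FMP16 and FMP33, whose products were found in mitochondria, had the largest rises among the genes the rule selects, which asks for a mean signal above the median of all probe sets only at the brighter time, a limit that the dim FMP33 passed at 6 h alone. FMP16 had 327 and 259.9 at 6 h, against 88.5 and 78.2 at 2 h (log2 change 1.81 ± 0.18 (SE), adjusted p = 0.0128), and FMP33 80.0 and 99.1 at 6 h, against 22.7 and 15.4 at 2 h (log2 change 2.26 ± 0.35 (SE), adjusted p = 0.0402).

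The other named rises had mixed roles. GAT2, a GATA-type zinc finger protein, had signals of 83.8 and 81.8 at 6 h, against 35 and 32 at 2 h (log2 change 1.31 ± 0.19 (SE), adjusted p = 0.0353), more than 2-fold apart. The sterol-binding secreted protein PRY1 had 922 and 995 at 6 h, against 581 and 540.4 at 2 h (log2 change 0.78 ± 0.11 (SE), adjusted p = 0.0366). The F-box gene SAF1 (log2 change 0.86) and ECM19 (log2 change 0.78) rose by less than 2-fold. So did GPC1 (log2 change 0.71), an acyltransferase of phospholipid metabolism, and the protein kinase gene KNS1 (log2 change 0.53), the latter on a probe set that may cross-react. MFA1, the precursor of the pheromone a-factor, had 1059 and 1041 at 6 h, against 649 and 522 at 2 h (log2 change 0.85 ± 0.13 (SE), adjusted p = 0.0377), on a probe set whose name marks possible cross-reaction within a gene family, while MFA2 had 3062 and 1739 at 6 h, against 2687 and 1960.3 at 2 h. For PRR2 (7.4 and 10.3 at 6 h), a protein kinase gene, and CDA1 (3.7 and 3.7 at 6 h), a chitin deacetylase gene of the spore wall, both 2 h arrays were listed at the lowest value of 1, so no fold is given. The dim RNA-binding protein gene PES4 had 30.4 and 29 at 6 h, against 12.5 and 12 at 2 h.

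Several permease genes fell. DIP5, which takes up glutamate and aspartate, had the lowest adjusted p of all probe sets, with signals of 537 and 599 at 6 h, against 1426 and 1559 at 2 h (log2 change -1.39 ± 0.079 (SE), adjusted p = 0.00122). Either 6 h signal was more than 2-fold below either 2 h signal. FCY22 had 40.1 and 47.5 at 6 h, against 96.1 and 98.6 at 2 h (log2 change -1.16 ± 0.14 (SE), adjusted p = 0.0245) and its paralogue FCY21 98.1 and 108 at 6 h, against 212.5 and 185 at 2 h (log2 change -0.95 ± 0.11 (SE), adjusted p = 0.0245). Both are close relatives of the purine-cytosine permease FCY2 whose labelled RNA may bind across these probe sets. The ammonium permease MEP3 had 444 and 401.5 at 6 h, against 705 and 643 at 2 h (log2 change -0.67 ± 0.092 (SE), adjusted p = 0.0336), and ATO3, a member of a family linked to ammonium export, 290.1 and 245 at 6 h, against 566 and 511 at 2 h (log2 change -1.01 ± 0.089 (SE), adjusted p = 0.0101). A probe set of SAM3, the S-adenosylmethionine permease, fell too (log2 change -1.30), with a name that marks possible cross-reaction. In none of these did the times overlap.

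Enzymes of metabolism also fell. SAM2, a synthetase of S-adenosylmethionine, had signals of 378 and 349 at 6 h, against 653 and 708 at 2 h (log2 change -0.90 ± 0.086 (SE), adjusted p = 0.0128). IMD4, an IMP dehydrogenase of guanine nucleotide synthesis, fell on both its probe sets: 9700_at had 1192 and 1254 at 6 h, against 2012 and 2098 at 2 h (log2 change -0.74 ± 0.12 (SE), adjusted p = 0.0400), and 9699_at 2012 and 1881 at 6 h, against 2705 and 2706 at 2 h (log2 change -0.47 ± 0.072 (SE), adjusted p = 0.0392). Both agreed in direction and differed in size. CDC21, the thymidylate synthase, had 49.1 and 50.7 at 6 h, against 79.3 and 82 at 2 h (log2 change -0.69 ± 0.11 (SE), adjusted p = 0.0465), on a probe set that may cross-react. A probe set shared by LYS20 and LYS21, the homocitrate synthases of lysine synthesis, fell by 0.59 on the log2 scale. In lipid synthesis, SUR2, which hydroxylates the long-chain base of sphingolipids, had 294 and 306 at 6 h, against 422 and 431.5 at 2 h (log2 change -0.51 ± 0.060 (SE), adjusted p = 0.0245), and SCT1, an acyltransferase at the start of glycerolipid synthesis, 174 and 154 at 6 h, against 239.9 and 261 at 2 h (log2 change -0.61 ± 0.085 (SE), adjusted p = 0.0348). A probe set of FAS1, the β subunit of fatty acid synthase, fell by 0.90 on the log2 scale, and 1 of FKS1, the β-glucan synthase of the cell wall, by 0.77, and both names mark possible cross-reaction. These values are of single probe sets, and others that may name the same genes are not given here. ALG3, a mannosyltransferase of N-glycan assembly, had 338 and 341 at 6 h, against 511 and 489 at 2 h (log2 change -0.56 ± 0.076 (SE), adjusted p = 0.0336).

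Genes of other roles fell too. MTR10, a nuclear import receptor, had signals of 137 and 135 at 6 h, against 232 and 206 at 2 h (log2 change -0.68 ± 0.098 (SE), adjusted p = 0.0353). RRN10, a subunit of the upstream activating factor of RNA polymerase I, had 65.9 and 67.8 at 6 h, against 103 and 109 at 2 h (log2 change -0.66 ± 0.095 (SE), adjusted p = 0.0353). RPL27B, a protein of the large ribosomal subunit, had 1779 and 1535 at 6 h, against 2325 and 2497 at 2 h (log2 change -0.54 ± 0.085 (SE), adjusted p = 0.0409), the only one of 81 cytosolic ribosomal protein genes called. A probe set of the tRNA methyltransferase gene TRM3, with a name that marks possible cross-reaction, fell by 0.73 on the log2 scale. The Hsp40 co-chaperone gene YDJ1 went the other way from SSA4, with 2022 and 1844 at 6 h, against 2636 and 2782 at 2 h (log2 change -0.48 ± 0.070 (SE), adjusted p = 0.0359). OGG1, a glycosylase that removes oxidised guanine from DNA, had 46.8 and 43 at 6 h, against 75.3 and 82.6 at 2 h (log2 change -0.81 ± 0.11 (SE), adjusted p = 0.0336), the zinc-linked membrane protein gene IZH1 853 and 874 at 6 h, against 1283 and 1350.4 at 2 h (log2 change -0.60 ± 0.081 (SE), adjusted p = 0.0330), and YDR444W (log2 change -0.82) and FMP42 (log2 change -0.56) fell as well. The 6 h arrays of YMR1, a lipid phosphatase gene, were both listed at 1, so no fold is given. Of the 5 fallen probe sets with no gene name, 3 had the largest fitted falls of all those called: 11273_at had 2.0 and 5.2 at 6 h, against 41.2 and 60.8 at 2 h, 3994_at 22.4 and 7.2 at 6 h, against 131 and 157 at 2 h and 2647_at 1.0 and 1.6 at 6 h, against 18.6 and 10.1 at 2 h. The paper lists 11273_at and 3994_at among those increased in the mutant over WT at 2 h. Its annotation places 3994_at on the mitochondrial genome. In WT at 2 h, 11273_at had 9.5 and 11.9 and 3994_at 15.4 and 20.1.

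Wider groups of genes were described by lists of genes with a shared role, each gene counted once. Over all 5656 genes named alone by a probe set, 11.6% were higher and 10.1% lower at 6 h at an unadjusted p under 0.05, with a median log2 change of 0.00. Leaving out an array moved the counts over all these genes too, up without MU 6 h A and down without each other mutant array. The list counts given below with an array left out therefore do not describe a list alone. Of 30 known targets of Msn2 and Msn4, 6 rose, 22 were higher at an unadjusted p under 0.05 and 0 lower, with a median of 0.52. Examples below the adjusted threshold were SPI1, a cell wall protein gene, with 1245 and 1302.5 at 6 h, against 689 and 486 at 2 h, and CTT1, the cytosolic catalase gene, with 253 and 124.5 at 6 h, against 74.2 and 53.7 at 2 h. The count of 22 became 13 without MU 6 h A and 11 without MU 2 h B. Of 22 genes of trehalose and glycogen metabolism 1 rose (NTH1), 11 were higher at an unadjusted p under 0.05 and 0 lower, with a median of 0.43. The count was 5 without MU 6 h A and 4 without MU 2 h B. GDB1, the glycogen debranching enzyme, had 748 and 573 at 6 h, against 371.5 and 359 at 2 h (adjusted p = 0.0803). Among 29 genes of oxidative stress defence, 0 passed the limma threshold, 12 were higher (9 to 13 with an array left out) and 1 lower at an unadjusted p under 0.05, and the median was 0.31. The glutaredoxin gene GRX2 had 986 and 901.5 at 6 h, against 653 and 519 at 2 h (adjusted p = 0.0521) and the peroxiredoxin gene TSA2 159.7 and 239 at 6 h, against 80.5 and 71.6 at 2 h (adjusted p = 0.0529).

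Chaperone genes did not move together. Of 32, SSA4 and HSP26 rose and YDJ1 fell, 7 were higher and 8 lower at an unadjusted p under 0.05, and the median was -0.050. The lower count was 3 without MU 6 h B and 2 without MU 2 h B. The list of the unfolded protein response of the endoplasmic reticulum had 1 of 20 genes higher at an unadjusted p under 0.05, HAC1, with 2052.5 and 3127 at 6 h, against 1705 and 1753 at 2 h, and 0 passed limma's adjusted threshold.

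Most genes of ribosome assembly had lower signals at 6 h, and none of them was called. Of 101 genes of ribosome biogenesis, 97 had a negative log2 change, 35 were lower at an unadjusted p under 0.05 and 0 higher, and the median was -0.35, but 0 passed the adjusted threshold of limma. The lowest adjusted p belonged to NOP1, the methyltransferase of box C/D small nucleolar RNPs, with 690.4 and 557.5 at 6 h, against 983 and 1086 at 2 h (log2 change -0.74 ± 0.13 (SE), adjusted p = 0.0539), and to ENP1, a factor of small subunit assembly, with 318 and 241 at 6 h, against 446 and 472 at 2 h (log2 change -0.73 ± 0.14 (SE), adjusted p = 0.0710). The helicase gene HAS1 had 259.9 and 223 at 6 h, against 407 and 419 at 2 h. The mean level of the list, relative to each gene's mean over the 12 arrays, was -0.45 and -0.39 at 6 h, against -0.22 and 0.11 at 2 h on the log2 scale, so that MU 2 h A lay nearer to both 6 h arrays than to MU 2 h B. The count of 35 was 23 without MU 6 h B, 49 without MU 2 h A and 10 without MU 2 h B. Of 40 genes of RNA polymerase I and III, RRN10 fell and 8 were lower at an unadjusted p under 0.05 (4 without MU 6 h B and 5 without MU 2 h B), with a median of -0.14. Of 35 translation factors 8 were lower, with CDC33, the cap-binding factor eIF4E, at 575 and 689 at 6 h, against 861 and 954 at 2 h (adjusted p = 0.0710), and of 21 aminoacyl-tRNA synthetases 6, with 0 higher in either list and 0 past limma's adjusted threshold. For the translation factors the count was 13 without either A array, 3 without MU 6 h B and 2 without MU 2 h B, and for the synthetases 2 without MU 2 h B. The 81 cytosolic ribosomal protein genes had a median of -0.026, with 2 higher and 7 lower at an unadjusted p under 0.05, where the lower count was 14 without MU 6 h A and 4 without MU 2 h A.

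Mitochondrial genes leaned the other way. Of 73 mitochondrial ribosomal protein genes, 21 were higher at an unadjusted p under 0.05 and 0 lower, with a median of 0.21 and a count of 15 to 20 with an array left out. MRPL17 had 215 and 194 at 6 h, against 152 and 142 at 2 h (adjusted p = 0.0718), and MRPL38 294.5 and 325 at 6 h, against 166.5 and 166 at 2 h (adjusted p = 0.0903). Of 56 nuclear genes of the respiratory chain and the TCA cycle, LSC2 rose, 14 were higher at an unadjusted p under 0.05 and 0 lower, with a median of 0.20. That count was 9 without either 6 h array and 4 without MU 2 h B. Of the 18 protein genes of the mitochondrial genome, COX1 rose and 4 in all were higher at an unadjusted p under 0.05. Among them was OLI1, a subunit of the ATP synthase, with 2685 and 1905 at 6 h, against 1842 and 1169 at 2 h. The list had a median of 0.27 (0.14 to 0.43 with an array left out), with 12 log2 changes positive and 5 negative. Apart from COX1 and OLI1, no gene of the list was above 36.4 on the 4 mutant arrays. Of those dim genes, SCEI (16.2 and 6.1 at 6 h, against 1.2 and 1.0 at 2 h) and AI1 (18.3 and 15.8, against 7.5 and 6.2) were the others counted as higher.

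**Figure D2:**
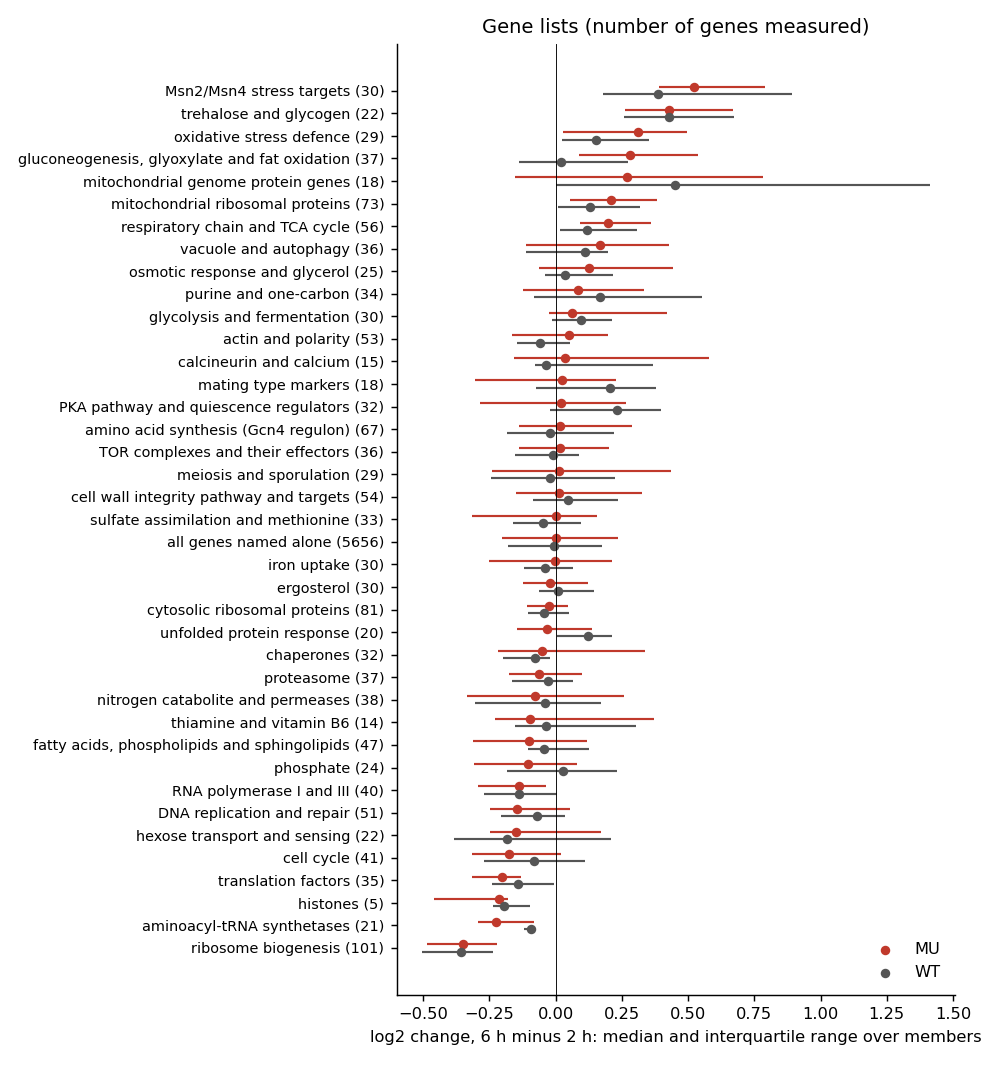
Median (points) and interquartile range (lines) of the log2 change from 2 h to 6 h over the measured genes of each list, in the mutant (red) and the wild type (grey), ordered by the mutant's median, with all 5656 genes as 1 entry. The targets of Msn2 and Msn4 stand at the top (median 0.52 in MU and 0.39 in WT) and ribosome biogenesis at the bottom (-0.35 in MU and -0.36 in WT).

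Genes that glucose represses and genes of the vacuole were higher in part, several of them with 6 h duplicates far apart. Of 37 genes of gluconeogenesis, the glyoxylate cycle and fat oxidation, ATO3 fell, and 10 were higher at an unadjusted p under 0.05. These were 1 without MU 6 h B, 13 without MU 6 h A and 0 without MU 2 h B. JEN1, the lactate permease, had 42.4 and 107 at 6 h, against 18 and 17.7 at 2 h (adjusted p = 0.348), and CYB2, a lactate dehydrogenase, 439 and 397 at 6 h, against 230.1 and 131 at 2 h (adjusted p = 0.125). Of 36 genes of the vacuole and autophagy, 11 were higher at an unadjusted p under 0.05 (7 without either B array) and 0 lower, and 0 passed limma's adjusted threshold. ATG8, the ubiquitin-like protein of the autophagosome, had 390.1 and 617 at 6 h, against 222 and 236 at 2 h (log2 change 1.10 ± 0.19 (SE), adjusted p = 0.0539), and PRB1, vacuolar protease B, 1296 and 2332 at 6 h, against 615 and 610.3 at 2 h (log2 change 1.51 ± 0.34 (SE), adjusted p = 0.0880). In JEN1, ATG8 and PRB1 both 6 h arrays were above both 2 h arrays, and MU 6 h B was higher than MU 6 h A by more than 1.5-fold. The same held for the vitamin B6 genes SNZ1 (131 and 235 at 6 h, against 69.7 and 70.1 at 2 h) and SNO1 (50.1 and 121 at 6 h, against 29 and 26.5 at 2 h), and for SPS100, a spore wall gene, with 199 and 396 at 6 h, against 36.4 and 36.3 at 2 h.

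Genes of proliferation were lower in part. Of 41 cell cycle genes 10 were lower and 2 higher at an unadjusted p under 0.05, with a median of -0.18, and the count of 10 became 2 without MU 6 h B, 5 without MU 2 h A and 1 without MU 2 h B. CDC28, the cyclin-dependent kinase, had 291 and 296 at 6 h, against 440.0 and 433.5 at 2 h (log2 change -0.57 ± 0.099 (SE), adjusted p = 0.0533). Of 51 genes of DNA replication and repair, CDC21 fell and 8 were lower at an unadjusted p under 0.05 (4 without either B array and 5 without MU 2 h A), with 0 higher. The histone gene HTB2 had 1572 and 952 at 6 h, against 1724 and 1842 at 2 h (adjusted p = 0.214), with MU 6 h A close to the 2 h arrays. Of 47 genes for fatty acids, phospholipids and sphingolipids, SUR2 fell and 11 were lower at an unadjusted p under 0.05 (7 without either B array), while OPI3, a methyltransferase of phosphatidylcholine synthesis, was higher with 1193 and 1664 at 6 h, against 735 and 619.5 at 2 h (adjusted p = 0.0848).

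**Figure D3:**
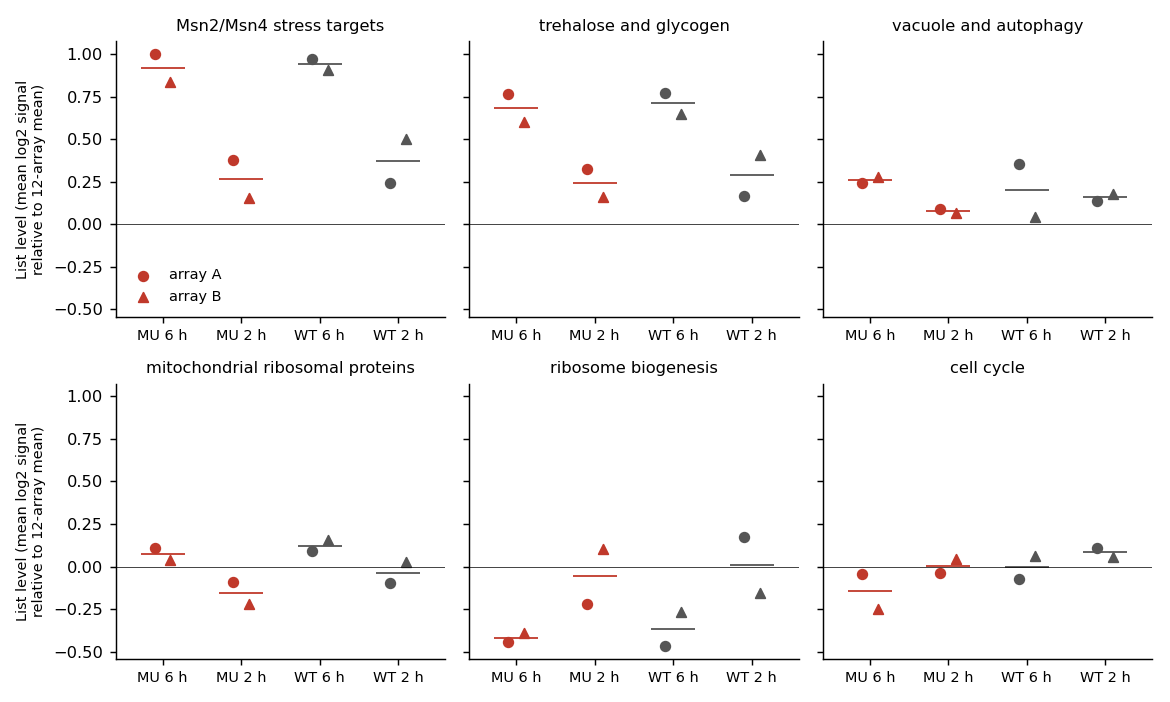
Mean log2 signal of 6 gene lists on each array, relative to each gene's mean over all 12 arrays; circles are arrays A, triangles arrays B, and bars the mean of the 2, in the mutant (red) and the wild type (grey). The targets of Msn2 and Msn4 lie at 1.0 and 0.83 on the MU 6 h arrays, against 0.38 and 0.16 at 2 h, and ribosome biogenesis at -0.45 and -0.39, against -0.22 and 0.11.

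The lists of the TOR complexes, of actin and polarity, of cell wall integrity and of amino acid synthesis held no calls. Of 36 genes of the TOR complexes and their effectors, 0 passed limma's adjusted threshold, and 3 were higher and 2 lower at an unadjusted p under 0.05 (2 to 5 and 0 to 2 with an array left out). TOR1 had 148 and 134 at 6 h, against 145 and 153 at 2 h, and NPR1, a kinase downstream of TOR complex 1 that acts on permeases, 359 and 402 at 6 h, against 295 and 270.0 at 2 h (adjusted p = 0.0777). The 53 genes of actin and polarity had 5 higher and 3 lower at an unadjusted p under 0.05 and a median of 0.051, and the 54 of the cell wall integrity pathway 8 and 7 with a median of 0.012. In neither list did a member pass limma's adjusted threshold. Without MU 6 h A, the higher counts were 11 and 14, where 697 of all 5656 genes were higher, and without MU 2 h B 2 and 3, where 390 were. GCN4, the activator of amino acid synthesis, had 3084 and 3271 at 6 h, against 2824 and 3062 at 2 h (log2 change 0.12 ± 0.076). Of 67 genes of amino acid synthesis 12 were higher and 8 lower at an unadjusted p under 0.05 (7 and 4 without MU 2 h B), with a median of 0.017. HIS3, of histidine synthesis, was higher with 334 and 426 at 6 h, against 263 and 229.7 at 2 h (adjusted p = 0.0718), LYS9, of lysine synthesis, lower with 94.4 and 88.4 at 6 h, against 181 and 149 at 2 h (adjusted p = 0.0502), and LEU4, of leucine synthesis, had 1887 and 2242 at 6 h, against 1709.6 and 1542 at 2 h. Of 38 nitrogen catabolite and permease genes, DIP5 and MEP3 fell, and 8 in all were lower (7 to 9 with an array left out) and 3 (1 to 5) higher at an unadjusted p under 0.05.

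The remaining lists held few calls, and their medians lay between -0.21 (histones) and 0.12 (osmotic response and glycerol). In sulfate assimilation and methionine (SAM2) and in purine and one-carbon metabolism (IMD4) 1 gene each fell, and in glycolysis and fermentation (TDH1), osmotic response and glycerol (ALD3) and the mating type markers (MFA1) 1 each rose. No adjusted call by limma was made for thiamine and vitamin B6, hexose transport, iron uptake, phosphate, histones, proteasome, ergosterol, PKA and quiescence regulators, meiosis and sporulation, or calcineurin and calcium, with 0 to 5 members of each higher and 1 to 5 lower at an unadjusted p under 0.05, counts that moved by up to 6 genes with an array left out.

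The wild type was followed over the same hours. Its changes come from other arrays than the mutant's, but the spread that chose the called probe sets was estimated over both strains, so the choice of probe sets is not independent of the WT arrays or of the p-values there. Most of the probe sets called in the mutant had a log2 change of the same sign in WT. Of the 27 probe sets that rose in the mutant, 26 had a positive log2 change in WT from 2 h to 6 h, 24 were higher there at an unadjusted p under 0.05, against 5.44% of all probe sets, and 4 were called (FMP16, MSC1, TDH1 and LSC2), against 0.0539%. FMP16 had signals of 349.6 and 301 at 6 h, against 86.7 and 111 at 2 h in WT, and MSC1 589 and 539, against 198 and 212.5, changes of 1.74 and 1.47 on the log2 scale beside 1.81 and 1.34 in the mutant. Of the 31 probe sets that fell, 28 had a negative log2 change in WT and 19 were lower there at an unadjusted p under 0.05, against 6.01%, and 0 were called by limma, where 0.0108% of all probe sets were called lower. The median log2 changes in WT were 0.61 for the rises and -0.33 for the falls, next to 1.09 and -0.77 in the mutant, where these probe sets were chosen for their size. Over all probe sets, the log2 changes of MU and WT had a Pearson correlation of 0.28 (Spearman 0.35), and over the 6956 left without the dimmest 25% one of 0.45 (0.45). These are descriptions across probe sets, which are not independent, on arrays of 1 array design and 1 processing.

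**Figure D4:**
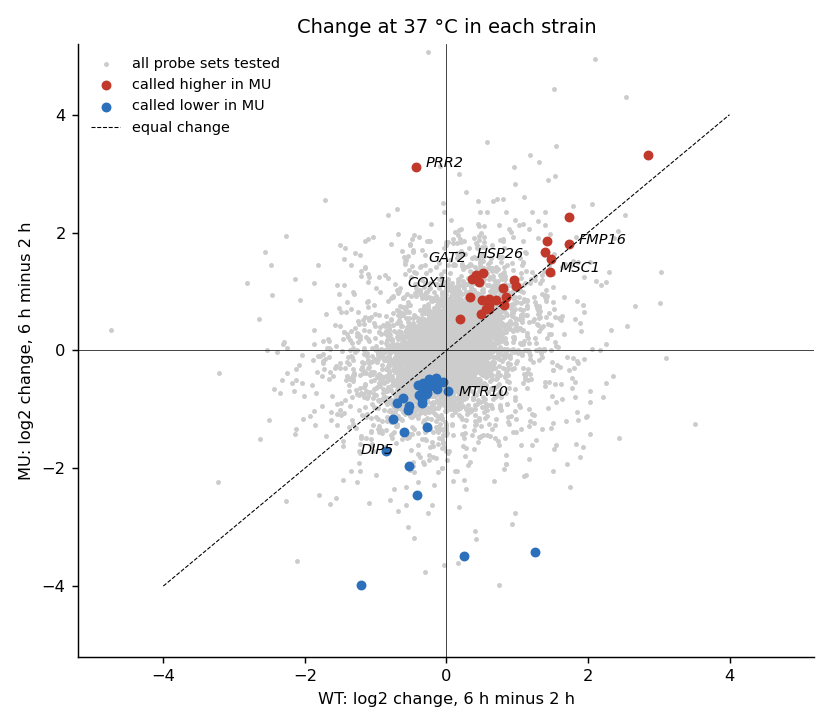
Log2 change from 2 h to 6 h in the mutant (vertical) against the wild type (horizontal) for all 9275 probe sets (grey), with those called higher (red, 27) and lower (blue, 31) in the mutant; the dashed line marks equal changes. FMP16 and MSC1 lie near the line, COX1, GAT2 and MTR10 away from it, and PRR2, at the lowest value on both MU 2 h arrays, has a negative change in WT.

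The first 2 h at 37 °C in WT can be set beside this, with the same WT 2 h arrays and the same estimate of the spread. From 0 h to 2 h in WT, 19 of the 27 probe sets that later rose in the mutant were called higher, against 5.38% of all, and 2 were called lower, against 3.28%. Of the 31 that fell, 5 were called lower and 0 higher by limma, against 3.28% and 5.38% of all. At an unadjusted p under 0.05, 11 were lower and 2 higher, against 12.3% and 12.5% of all. So most of the rises were of probe sets already called higher within 2 h in WT. For the falls, the 5 called lower there were a minority of the 31, but a larger share than the 3.28% of all probe sets.

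No probe set passed the threshold for a difference between the strains in their change from 2 h to 6 h (limma, 0 higher and 0 lower), and at an unadjusted p under 0.05 the change was higher in MU for 255 and lower for 304 of 9275 (2.75% and 3.28%). Those counts were 504 and 585 without MU 6 h A and 409 and 401 without WT 6 h A. At the adjusted threshold, leaving out WT 2 h A gave 1 higher and 1 lower, leaving out WT 6 h B gave 1 higher, and ranks, an offset or a block gave 0. The lowest adjusted p was 0.249. It belonged to DIP5, whose signals in WT were 922 and 858 at 6 h, against 1321 and 1380.5 at 2 h, so that the log2 change was lower by 0.80 ± 0.11 in the mutant, and to 3 dim probe sets with no gene name, 11001_at, 2647_at and 11430_at, with signals of 1.0 to 18.6 on the 8 arrays. The difference for COX1 was 0.85 ± 0.26 (adjusted p = 0.738), with 414 and 638 in WT at 6 h and 390.0 and 414 at 2 h. MTR10 had 185 and 188 in WT at 6 h and 172 and 199.6 at 2 h, a difference of -0.70 ± 0.14 (adjusted p = 0.664). For RPL27B it was -0.50 ± 0.12 (adjusted p = 0.738), for CDC28 -0.62 ± 0.14 (adjusted p = 0.676) and for ATG8 1.13 ± 0.27 (adjusted p = 0.738). A p that misses the threshold does not show that the strains changed alike. The lists of stress genes and ribosome biogenesis had medians of the same sign in both strains: 0.52 in MU and 0.39 in WT for the targets of Msn2 and Msn4, 0.43 and 0.43 for trehalose and glycogen, and -0.35 and -0.36 for ribosome biogenesis. Other medians lay further apart. They were 0.28 in MU and 0.021 in WT for gluconeogenesis, the glyoxylate cycle and fat oxidation, and 0.021 and 0.23 for PKA and quiescence regulators. No list was tested for a difference between the strains.

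The levels at 0, 2 and 6 h show several courses in the mutant. HSP26 had 81 and 58.9 at 0 h, 296 and 266 at 2 h and 839 and 943 at 6 h, and TDH1 243 and 277, 1612 and 1410.1 and 3190.2 and 3691, so both climbed in each interval (0 h to 2 h, where 4.88% of all probe sets were called higher and 3.11% lower: log2 changes of 2.02 and 2.53, adjusted p = 0.00120 and 6.49e-05, limma). GAT2 (29.3 and 35.6 at 0 h) and ECM19 (232 and 241 at 0 h) were not called between 0 h and 2 h and rose later. COX1 had 1242 and 1260.1 at 0 h, so it had fallen by 2 h (log2 change -1.28, adjusted p = 0.00633, limma) and its log2 change from 0 h to 6 h was -0.077 (adjusted p = 0.807). MFA1 had 1942 and 1693 at 0 h, 649 and 522 at 2 h and 1059 and 1041 at 6 h, a fall (adjusted p = 0.000522, limma) before the rise. Among the falls, ATO3 declined in both intervals, with 1122 and 1182 at 0 h, while DIP5 (1257 and 1187 at 0 h), SAM2 (733 and 725 at 0 h) and MTR10 (187 and 184 at 0 h) were not called between 0 h and 2 h and fell later. The changes from 0 h to 2 h and from 2 h to 6 h share the 2 h arrays, so no relation between them was computed.

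**Figure D5:**
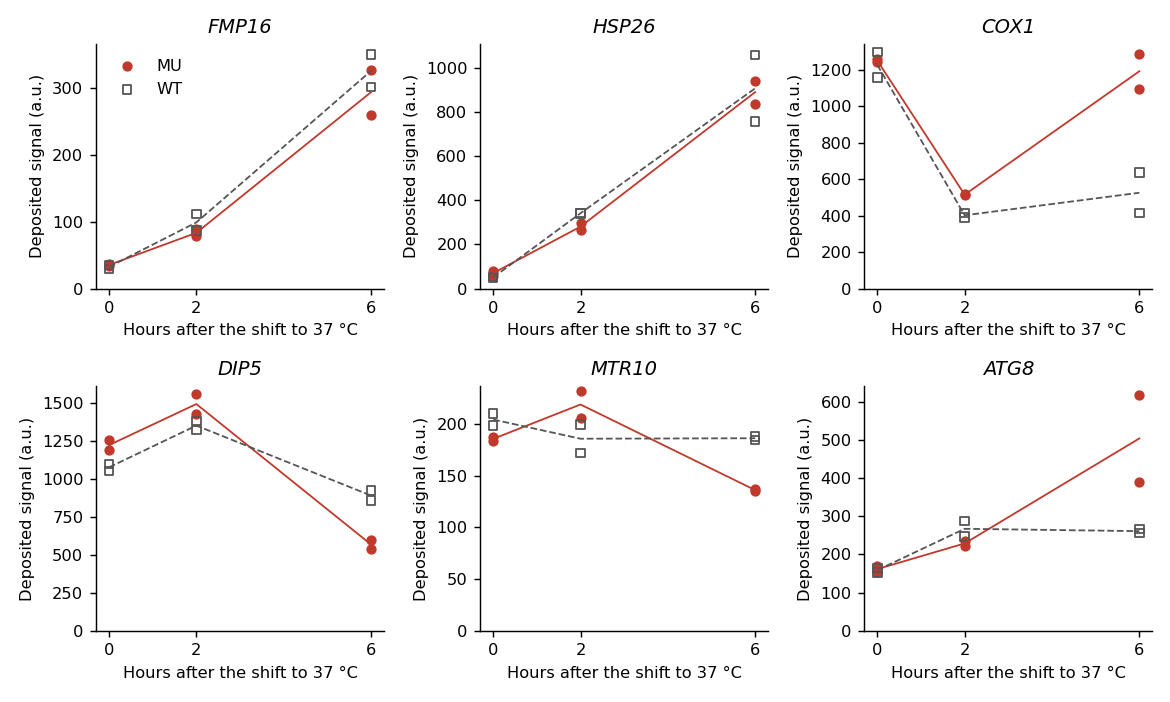
Signals of 6 genes at 0, 2 and 6 h after the shift to 37 °C; filled red circles are the duplicates of the mutant and open dark grey squares those of the wild type, with solid (MU) and dashed (WT) lines through the means. FMP16 and HSP26 climb in both strains, COX1 at 6 h stands at 1097 and 1288 in the mutant and 414 and 638 in WT, and the means of DIP5, MTR10 and ATG8 move further from 2 h to 6 h in the mutant than in WT.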

How the data were processed

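RNA of 2 strains at 3 times was measured on 12 Affymetrix S98 arrays, 1 for each independent culture. The authors made the deposited signal intensities from the images with MAS 5.0 and processed them with Matlab scripts. All 12 columns follow nearly 1 curve of value against rank, but which step made it so, or set the lowest value of 1, is not stated in the methods or labels. Conditions come from the sample titles. The platform annotation names 1 gene for 6504 of the 9275 probe sets. It names several genes for 328 and no gene for 2443. In all, 1730 have names that mark possible cross-reaction. A gene in a list was counted once, by its brightest probe set.

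Log2 signals were quantile-normalized (values moved by at most 0.55) and fitted with limma 3.58.1 in R 4.3.3, all 12 arrays in 6 groups, with a variance trend and 6 residual degrees of freedom. Comparisons were MU 6 h with MU 2 h, WT 6 h with WT 2 h, the difference of these, and both times with 0 h. P-values were adjusted over 9275 probe sets, and calls made at an adjusted p under 0.05. An unadjusted p under 0.05 was added to describe lists after the calls had been seen. The number of arrays limits the precision. On data simulated for MU 6 h minus MU 2 h over 9275 probe sets, limma called 72 of 100 probe sets given a log2 change of 1 and 98 of 100 given one of 2. It made 5 false calls. The study's rank difference analysis (RDAM), written anew, recovered 97 and 100 of 100 on simulated data whose spread depended on signal alone, with 21 false calls at an FDR of 10%. In both simulations the changed probe sets were drawn only from those above the median signal, so recovery of dim ones was not tested. Tables were handled in Python 3.11.15 (pandas 2.3.3, statsmodels 0.14.6).

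Named are, among called probe sets with 1 gene, no mark of cross-reaction, no overlap of the 4 arrays and a signal above the median, the 15 largest rises and 15 largest falls; in each of 38 lists the 4 largest called changes or, with fewer than 2 calls, the 2 lowest p-values; the 4 lowest p-values of the strain difference; and genes named by the study (THI11 is not analysed here, and 1 other is not reported here). GPC1, HSP12, KNS1, PES4, PRR2, CDA1, SAM3, FAS1, FKS1, TRM3, YMR1, MFA2, CTT1, HAS1, MRPL38, OLI1, the probe set of LYS20 and LYS21, and the unnamed probe sets 11273_at and 3994_at fall outside this rule and were chosen after their values were seen. The comparison, the members and the lists were chosen with earlier results of these data known. Alternatives were no further normalization, median centring, an offset of 16, leaving out the dimmest 25% of probe sets, no variance trend, only the arrays compared, ranks, an adjusted p under 0.10, a fit with the replicate letter as a block, no probe sets that may cross-react, keeping the yeast AFFX probe sets, leaving out each array, and RDAM.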

Additional observations from a re-analysis of the deposited data

Results flagged for a closer look

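One signal outside the tested probe sets stood above the wild type at 6 h: the ribosomal RNA control AFFX-25srRnaa_at averaged 1861 on the MU 6 h arrays (3291 on A and 431 on B), where the 4 WT arrays at 6 h and 2 h lay between 35.6 and 159.5. It was 122 and 185 on the MU 2 h arrays and 4698 and 323 on the MU 0 h arrays, against 142 and 570.2 on the WT 0 h arrays. The other rRNA control probe sets were at 49.3 or below on all 12 arrays.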

How the results depend on the processing

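The counts of calls, given as higher and lower, moved with the settings. For MU 6 h minus MU 2 h (27 and 31), they were 48 and 40 with an offset of 16, 131 and 117 without the dimmest 25%, 11 and 13 without a variance trend, 178 and 187 at an adjusted p under 0.10, 0 and 0 with only the 4 arrays compared (615 and 659 at an unadjusted p under 0.05), and 165 and 3 by RDAM, which shared 17 of the rises and 2 of the falls. Leaving out an array gave 0 to 120 higher and 1 to 136 lower. For WT 6 h minus WT 2 h (5 and 1), they were 4 and 0 with an offset of 16, 19 and 16 without the dimmest 25%, 0 and 0 with only the arrays compared, 3 and 1 with ranks, 5 and 0 without possible cross-reaction, 16 and 16 at an adjusted p under 0.10, 27 and 0 by RDAM, and 0 to 8 higher and 0 to 5 lower with an array left out. The strain difference (0 and 0) became 0 to 1 higher and 0 to 1 lower with an array left out. The cause of these moves was not tested, except that fewer arrays or probe sets were in some fits.

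The letters A and B were not taken as pairs in the main fit. The deviations (A minus B) of MU 2 h and MU 6 h had a correlation of -0.026 across probe sets. Over all pairs of groups it ran from -0.104 (WT 2 h with MU 2 h) to 0.119 (MU 0 h with MU 6 h). With the letter as a replicate block, 11 were higher and 9 lower in MU, all of them among the 27 and 31, 2 and 0 in WT, and 0 and 0 for the strain difference. Over 1545 values of the 104 named probe sets under the alternatives other than RDAM, 4 turned sign, none of them past the threshold. All 39 called ones kept their direction, but their 6 h and 2 h arrays did not overlap, so leaving out an array could not turn the sign. Their calls held less well: none of the 39 was called in the fit with only the arrays compared. Signals near the lowest value of 1, which hold 858 probe sets, limit what can be said of dim genes.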
